A study of Caenorhabditis elegans with 6 samples.

Results

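The genes described here carry out chemical transmission between motor neurons and muscle in Caenorhabditis elegans. They are 10 genes in all, of 17118 genes with a probe set of their own on the array. 5 belong to acetylcholine (unc-17, cha-1, cho-1, ace-1 and ace-2) and 5 to GABA (unc-25, unc-46, unc-47, unc-49 and exp-1). Every probe set whose single gene symbol was one of these names was taken, which gave 19 probe sets. The rule used names and roles, and it was written with earlier results of these arrays known.

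Expression was measured on 6 Affymetrix C. elegans Genome Arrays. Wild-type N2 supplied 3 of them and an outcrossed strain with the allele tdp-1(ok803), which the labels mark as loss of function, supplied the other 3. tdp-1 encodes the worm orthologue of TDP-43, an RNA-binding protein linked to motor neuron disease in humans. The question was how transcript levels change once this gene no longer works. The RNA came from whole worms of mixed stages, so motor neurons and muscle were measured together with all other tissues, and the labels give no age or further treatment for either group. In such bulk RNA, fewer cells of a type and less RNA per cell cannot be told apart. Replicates are biological, per the design text.

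In the worm, excitatory motor neurons release acetylcholine onto body wall muscle, while inhibitory motor neurons release GABA and relax the muscle on the opposite side of the body, which lets a bend travel along the animal. Acetylcholine is made by a choline acetyltransferase, packed into vesicles and, once released, broken down by acetylcholinesterases, after which the choline is taken up again. GABA is made by a glutamate decarboxylase, packed by its own vesicular transporter, and opens chloride channels on body muscle. A cation channel gated by GABA serves the enteric muscles, which contract during defecation.

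The genotype showed in tdp-1 itself. Its brighter probe set read 8.86, 9.22 and 8.85 on wild-type replicates 1 to 3 and 4.77, 4.78 and 5.47 on the mutant replicates, a difference of -3.97 on the log2 scale (limma adjusted p = 0.000815). Values below are log2 expression values, and every difference is tdp-1(ok803) minus wild type on that scale, so that -1 would be a halving. Levels of different probe sets cannot be set against each other on this array, because each responds to its own probes.

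No gene of the 10 passed the test for a change in the mutant. The count was 0 of 10 genes, and 0 of 19 probe sets, at an adjusted p under 0.05 in limma, a moderated linear model fitted over all 22548 probe sets, of which 0.0577% passed. At an unadjusted p under 0.05, 1 of the 10 genes stood, against 6.97% of all probe sets. An unmoderated linear model called 0 members, but it called 0 of all 22548 probe sets, those of tdp-1 included, so nothing is read from it. Taking the brightest probe set for each gene, 6 were lower and 4 higher in the mutant. The median difference was -0.04 over the 10 genes, and 0.0021 over all probe sets. The members' median was 0.02 without wild-type replicate 3, and -0.12 over the 7 genes left by a filter on low signal, so its sign rested on 1 array. The median was -0.02 for the 5 acetylcholine genes and -0.24 for the 5 GABA genes, or 0.11 and -0.21 with the 3' minus 5' difference of control probe sets, a sign of RNA integrity, as a term. These medians describe the 2 groups and the difference between them was not tested.

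**Figure D1:**
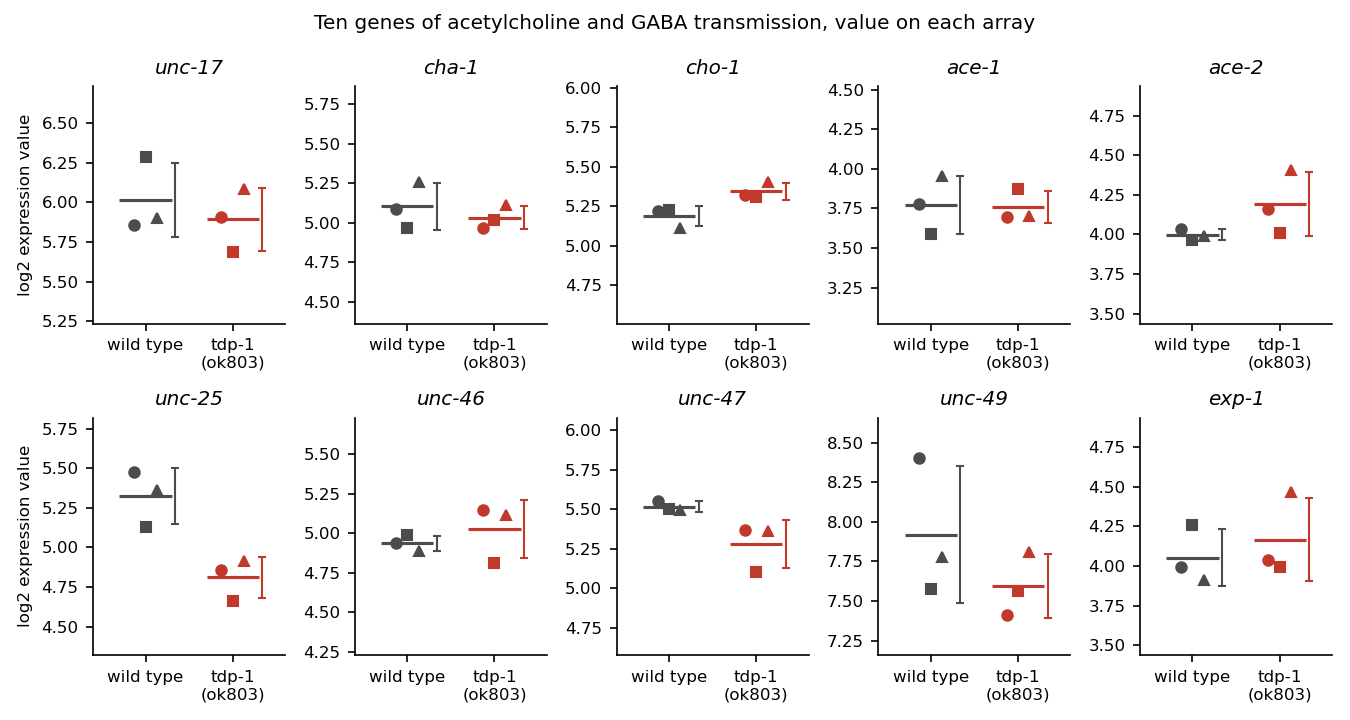
Log2 expression value (vertical axis) of the brightest probe set of each of the 10 genes on each array, with wild type in grey and tdp-1(ok803) in red; circles, squares and triangles are replicates 1, 2 and 3, the horizontal line is the mean and the bar beside it 1 SD either way (n = 3), and every panel spans the same number of log2 units. The mutant values of unc-25 and unc-47 lie below, and those of cho-1 above, all wild-type values, while the other 7 genes overlap.

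Among the genes of GABA synthesis and loading, unc-25, which encodes the glutamate decarboxylase that makes GABA, stood farthest from 0. Its only probe set read 5.48, 5.13 and 5.37 in wild type and 4.86, 4.66 and 4.91 in tdp-1(ok803). All 3 mutant arrays lay below all 3 wild-type arrays. The difference was -0.51 ± 0.14 (SE, n = 3 per genotype), a 1.43-fold lower level, with a 95% interval from -0.83 to -0.20. It had an unadjusted p of 0.00586 and did not pass over all probe sets (limma adjusted p = 0.421). Permuting the 6 values exactly gave a two-sided p = 0.1, and 3 against 3 can go no lower.

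The vesicular GABA transporter gene unc-47 followed in the same direction with a smaller difference. Wild-type values were 5.55, 5.50 and 5.50, with an SD of 0.03, and the mutant values were 5.37, 5.10 and 5.37. The groups did not overlap, and replicate 2 of the mutant was the lowest array for unc-47, as it was for unc-25. That array also had the lowest median over all probe sets, 5.41, and was the lowest for the brightest probe sets of unc-17 and unc-46. The difference of unc-47 was -0.24 ± 0.12 (SE), with a 95% interval from -0.52 to 0.04 (limma adjusted p = 0.785). The gene unc-46, whose LAMP-like product sorts the transporter to synaptic vesicles, did not share this direction. Its brighter probe set read 4.94, 4.99 and 4.89 in wild type and 5.15, 4.81 and 5.11 in the mutant, with mutant values on both sides of the wild-type ones. That difference was 0.09 ± 0.13 (SE), and the dimmer probe set of unc-46 gave 0.02 ± 0.12 (limma adjusted p = 0.935 and 0.99).

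The GABA receptor genes gave no common direction. The gene unc-49 encodes the subunits of the inhibitory GABA-gated chloride channel of body wall muscle, made from one locus by alternative splicing, and it had 4 probe sets. The brightest read 8.41, 7.58 and 7.78 in wild type and 7.41, 7.56 and 7.81 in the mutant, so only wild-type replicate 1 stood clear above the mutant arrays. The difference was -0.32 ± 0.22 (SE, limma adjusted p = 0.858), and without wild-type replicate 1 it was -0.08. The second probe set of unc-49 read 7.53, 6.99 and 7.37 against 6.74, 6.72 and 7.17, and differed by -0.42 ± 0.19 (limma adjusted p = 0.731). The remaining unc-49 probe sets, both dim, differed by 0.09 ± 0.11 and 0.08 ± 0.14 (limma adjusted p = 0.914 and 0.945).

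The bright probe sets of unc-49 thus lay on the lower side, while the dim ones, both at the 24.8th percentile of mean signal, lay near 0. The mean of the 2 bright ones minus the mean of the 2 dim ones was 3.74, 3.01 and 3.27 in wild type and 2.75, 2.86 and 3.03 in the mutant, a comparison chosen after their values were seen. Mutant replicate 3 lay above wild-type replicate 2, so the groups overlapped, and the difference of -0.46 gave an exact permutation p = 0.2. It mostly repeats the lower values of the bright probe sets, and nothing is read from it. Which splice forms each probe set detects was not analysed here. The gene exp-1, for the excitatory GABA-gated cation channel of enteric muscle, read 3.99, 4.26 and 3.91 in wild type and 4.04, 3.995 and 4.47 in tdp-1(ok803). Its groups overlapped, and its difference was 0.11 ± 0.17 (SE, limma adjusted p = 0.933).

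The genes cha-1, for choline acetyltransferase, and unc-17, for the vesicular acetylcholine transporter, are annotated as overlapping in the WBcel235 gene table and are known to share their first exon, so that both products come from one locus. The brighter cha-1 probe set read 5.09, 4.97 and 5.26 in wild type and 4.97, 5.02 and 5.11 in the mutant. The mutant values lay within the wider wild-type range, and the difference was -0.07 ± 0.12 (SE), with 0.0033 for the dimmer cha-1 probe set (limma adjusted p = 0.945 and 0.999).

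The brightest of the 3 probe sets of unc-17 read 5.86, 6.28 and 5.90 in wild type and 5.91, 5.69 and 6.09 in the mutant, overlapping groups that differed by -0.12 ± 0.16 (SE, limma adjusted p = 0.929). The second gave -0.13 ± 0.15 (limma adjusted p = 0.92). The dimmest unc-17 probe set read 4.48, 4.44 and 4.53 against 4.25, 4.17 and 4.26, without overlap. It differed by -0.26 ± 0.11, with an unadjusted p of 0.0432 and a limma adjusted p of 0.702. All 3 probe sets of unc-17 therefore lay on the lower side, read from the same RNA samples, and 1 of them separated the genotypes. That one ranked at the 25.9th percentile of mean signal. Whether the probe sets of unc-17, cha-1 and unc-49 read only their own transcripts was not assessed here. The brightest was 0.015 without wild-type replicate 2 and 0.027 with array weights.

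The choline transporter gene cho-1, whose product returns choline to cholinergic terminals, was the only member that every mutant array placed above every wild-type array. It read 5.22, 5.23 and 5.12 in wild type and 5.32, 5.31 and 5.40 in tdp-1(ok803). The separation was narrow, and the difference of 0.16 ± 0.11 (SE) had a 95% interval from -0.09 to 0.41 (limma adjusted p = 0.858).

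Acetylcholinesterase genes were read near the bottom of the array's range. The gene ace-1, expressed chiefly in muscle, read 3.78, 3.59 and 3.96 in wild type and 3.69, 3.87 and 3.70 in the mutant on its brighter probe set, with overlapping groups and a difference of -0.02 ± 0.13 (SE, limma adjusted p = 0.991). Its dimmer probe set differed by 0.06 ± 0.22. The gene ace-2, expressed chiefly in neurons, read 4.03, 3.97 and 3.99 in wild type and 4.16, 4.01 and 4.41 in the mutant, a difference of 0.19 ± 0.13 (limma adjusted p = 0.858). The wild-type arrays lay close together for ace-2, and mutant replicate 2 fell among them. Its other probe set gave 0.16 ± 0.14.

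**Figure D2:**
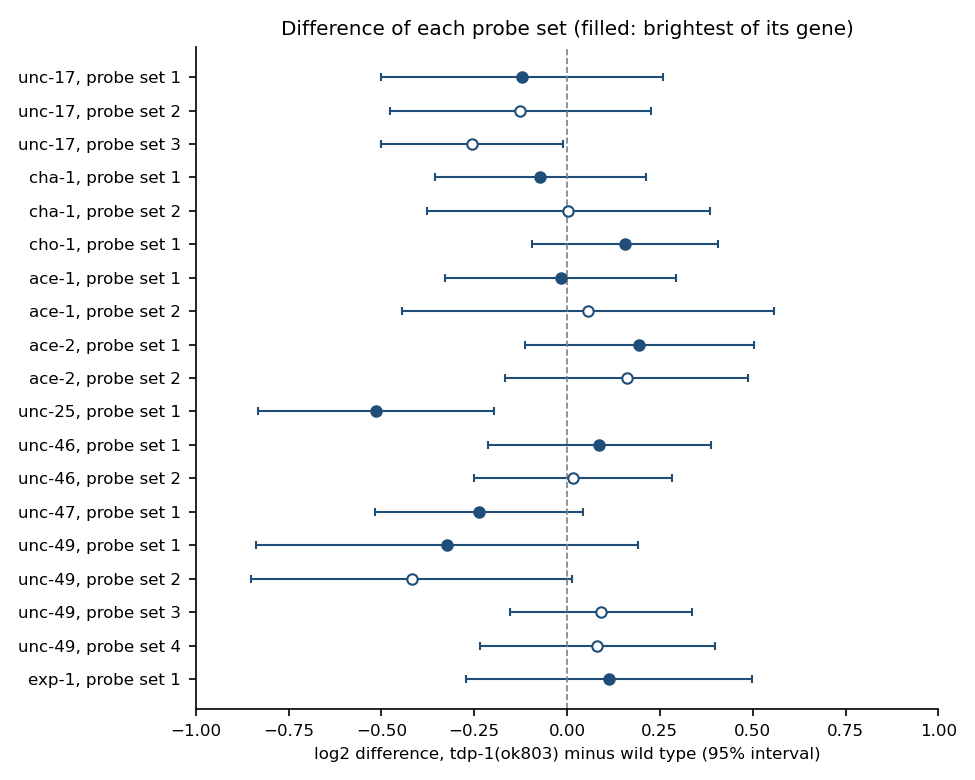
Log2 difference, tdp-1(ok803) minus wild type (horizontal axis), of all 19 probe sets of the 10 genes, with 95% intervals from limma (n = 3 per genotype); filled points are the brightest probe set of each gene and probe sets are numbered from bright to dim within a gene. The intervals of unc-25 and of the dimmest unc-17 probe set exclude 0 before adjustment for the number of probe sets, and those of the other 17 include it.

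The intervals bound how large a change these arrays leave room for. For the brightest probe sets the 95% intervals, taken one at a time, ran from -0.84 at the lowest to 0.50 at the highest, so that each excluded a halving or doubling of the reported value, the widest reaching a 1.79-fold difference. A missed threshold does not show equal levels. The smallest difference called anywhere in the table was 1.35 in size, and the standard errors of the members, 0.11 to 0.22, spanned the median of all probe sets, 0.15. As a rough guide to signal, the mean of 8 of the 10 genes ranked below the middle of all probe sets, and 3 of them, ace-1, ace-2 and exp-1, below the 30th percentile. The ranks were 9.0 for ace-1, 18.4 for ace-2 and 18.8 for exp-1, and the highest was 76.1 for unc-49. Whether the dim values lay above background was not assessed, and near background a difference in RNA gives a smaller difference in the reported value.

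Groups did not overlap for 3 of the 10 genes, beside 11.6% of all probe sets. The genes unc-25 and unc-47 were the 2 lower ones, beside 4.84% of all probe sets, and cho-1 was the 1 higher one, beside 6.8%. Over probe sets the count was 4 of 19, with the dimmest unc-17 probe set added on the lower side. With so few genes, chosen with earlier results of these arrays known, nothing is read from that share.

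The arrays also differed in the 3' minus 5' difference of the actin and Gapdh control probe sets, a sign of RNA integrity and of the reach of labelling. It was small, 2.52 to 3.09, on mutant replicate 2 and on replicates 1 and 3 of wild type, and large, 4.01 to 4.31, on the other 3 arrays, and its means of 3.11 and 3.80 did not separate the genotypes (exact permutation p = 0.3). At fixed genotype the members' slopes on this difference ran from -0.18 for ace-1 to 0.28 for unc-17 in log2 units per log2 unit. None of the 10 slopes passed over all probe sets (limma adjusted p under 0.05), where 11.4% did, and 2 of the 10 had an unadjusted p under 0.05, those of unc-17 and exp-1.

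Within each class of arrays, split after the data were seen, unc-25 and unc-47 were lower in the mutant. One arm of each class is a single array, so these values carry no error and their sizes were not compared. On the small-difference arrays, 2 wild type and 1 mutant, unc-25 differed by -0.76 and unc-47 by -0.42. On the large-difference arrays, 1 wild type and 2 mutant, unc-25 differed by -0.25 and unc-47 by -0.13. The difference of cho-1 was 0.14 in either class. With that control difference added as a covariate, unc-25 differed by -0.48, unc-47 by -0.29 and cho-1 by 0.12 (limma adjusted p = 0.31, 0.461 and 0.75). The covariate moved unc-17 from -0.12 to -0.31 (limma adjusted p = 0.375), and it turned the sign of 3 genes near 0, ace-1, unc-46 and exp-1. No member was called with it.

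**Figure D3:**
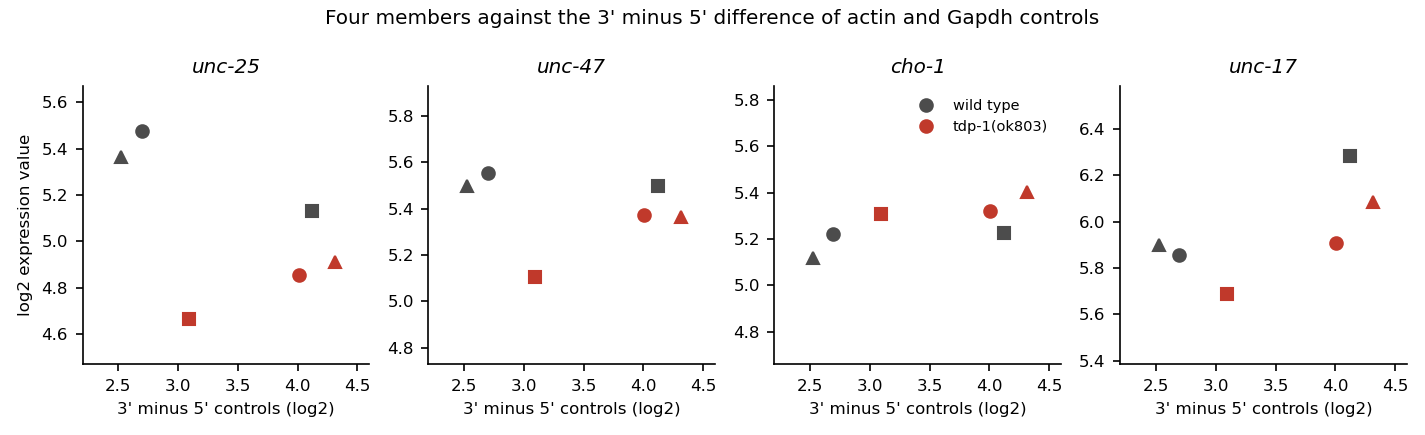
Log2 expression value (vertical axis) of unc-25, unc-47, cho-1 and unc-17 on the 6 arrays against the mean 3' minus 5' difference of the actin and Gapdh control probe sets (horizontal axis, log2 units), with wild type in grey, tdp-1(ok803) in red and circles, squares and triangles for replicates 1, 2 and 3. Mutant arrays lie below wild-type arrays of the same class for unc-25 and unc-47, by 0.76 and 0.42 on the left and 0.25 and 0.13 on the right, and unc-17 is highest on wild-type replicate 2, an array with a large control difference.

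The genes that receive the signals were also without a call. Of 13 genes for acetylcholine receptors of muscle, pharynx and motor neurons, 12 were measured, eat-18 not. Of these, 0 passed in limma over all probe sets, and 1 had an unadjusted p under 0.05, beside 6.97% of all probe sets. Of the 12, 6 were lower and 6 higher, with a median of -0.01 (-0.10 with the 3' minus 5' covariate and 0.04 without wild-type replicate 2). The muscarinic receptor gene gar-3 had 3 probe sets. Its brightest, also the one of smallest p, read 5.80, 5.76 and 5.74 in wild type and 5.37, 5.36 and 5.48 in the mutant. All mutant arrays lay below all wild-type ones for this probe set, and its difference of -0.36 ± 0.11 (SE) did not pass (limma adjusted p = 0.518). Values of the other gar-3 probe sets are not given here. Nicotinic subunit genes acr-8 and unc-38 differed by -0.21 ± 0.12 and -0.24 ± 0.14 (limma adjusted p = 0.817 and 0.83).

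Genes that assemble receptors or hold them at the neuromuscular junction had a median of -0.18 over 10 measured of 13, emc-6, oig-4 and unc-74 not being measured. Here 0 passed in limma, 1 had an unadjusted p under 0.05, beside 6.97% of all probe sets, and 7 were lower. Leaving out wild-type replicate 1 gave a median of -0.05, and leaving out mutant replicate 2 gave -0.06. The secreted product of madd-4, from motor neurons, gathers acetylcholine and GABA receptors opposite the right terminals. The brighter of the 2 madd-4 probe sets read 7.74, 7.16 and 7.57 in wild type and 7.14, 6.82 and 6.98 in tdp-1(ok803). The groups were just separate, and the difference was -0.51 ± 0.17 (SE, limma adjusted p = 0.581). On the small-difference arrays madd-4 differed by -0.83 and on the large-difference arrays by -0.10. The neuroligin gene nlg-1, which takes part in clustering GABA receptors, differed by -0.28 ± 0.13 (limma adjusted p = 0.762). The gene unc-50, needed for the levamisole-sensitive acetylcholine receptor, differed by 0.27 ± 0.13 (limma adjusted p = 0.753). Both are given by the brighter of 2 probe sets.

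For other GABA signalling the median was -0.16 over all 7 genes listed, 5 of them lower. Limma called 0, and 1 had an unadjusted p under 0.05, beside 6.97% of all probe sets. Leaving out replicate 2 gave a median of -0.09 for the wild-type array and -0.10 for the mutant one. The plasma membrane GABA transporter gene snf-11, which clears GABA from the synapse, read 6.37, 6.37 and 6.58 in wild type and 6.19, 6.16 and 6.03 in the mutant. Its groups did not overlap, and it differed by -0.32 ± 0.12 (SE, limma adjusted p = 0.641), by -0.32 on the small-difference arrays and -0.26 on the large-difference ones. The ionotropic receptor gene gab-1 differed by 0.25 ± 0.13 on its dimmer probe set and -0.16 on its brighter one (limma adjusted p = 0.785 and 0.876). The metabotropic receptor gene gbb-2 differed by -0.21 ± 0.14 on the brighter of its 2 probe sets (limma adjusted p = 0.853).

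The other cholinesterase genes, ace-3 and ace-4, differed by -0.05 ± 0.13 and, on the ace-4 probe set with the smallest p, 0.12 ± 0.15 (limma adjusted p = 0.964 and 0.92). Transcription factors that set motor neuron types had a median of 0.05 over 9 genes, with 0 called in limma, 0 at an unadjusted p under 0.05 and 6 higher. It was 0.16 without wild-type replicate 2, -0.02 without mutant replicate 1 and -0.06 with the 3' minus 5' covariate, so neither its size nor its sign held. Among them vab-7, a homeodomain gene of DB motor neurons, differed by 0.37 ± 0.22 and unc-4, a homeodomain gene of VA motor neurons, by -0.20 ± 0.12. The homeodomain gene alr-1 differed by 0.22 ± 0.18 on the brighter of its 2 probe sets (limma adjusted p = 0.83, 0.832 and 0.874 for vab-7, unc-4 and alr-1). The selector genes of the transmitter types, unc-3 for cholinergic and unc-30 for GABA motor neurons, were among the 6 genes of that list with larger p than these.

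**Figure D4:**
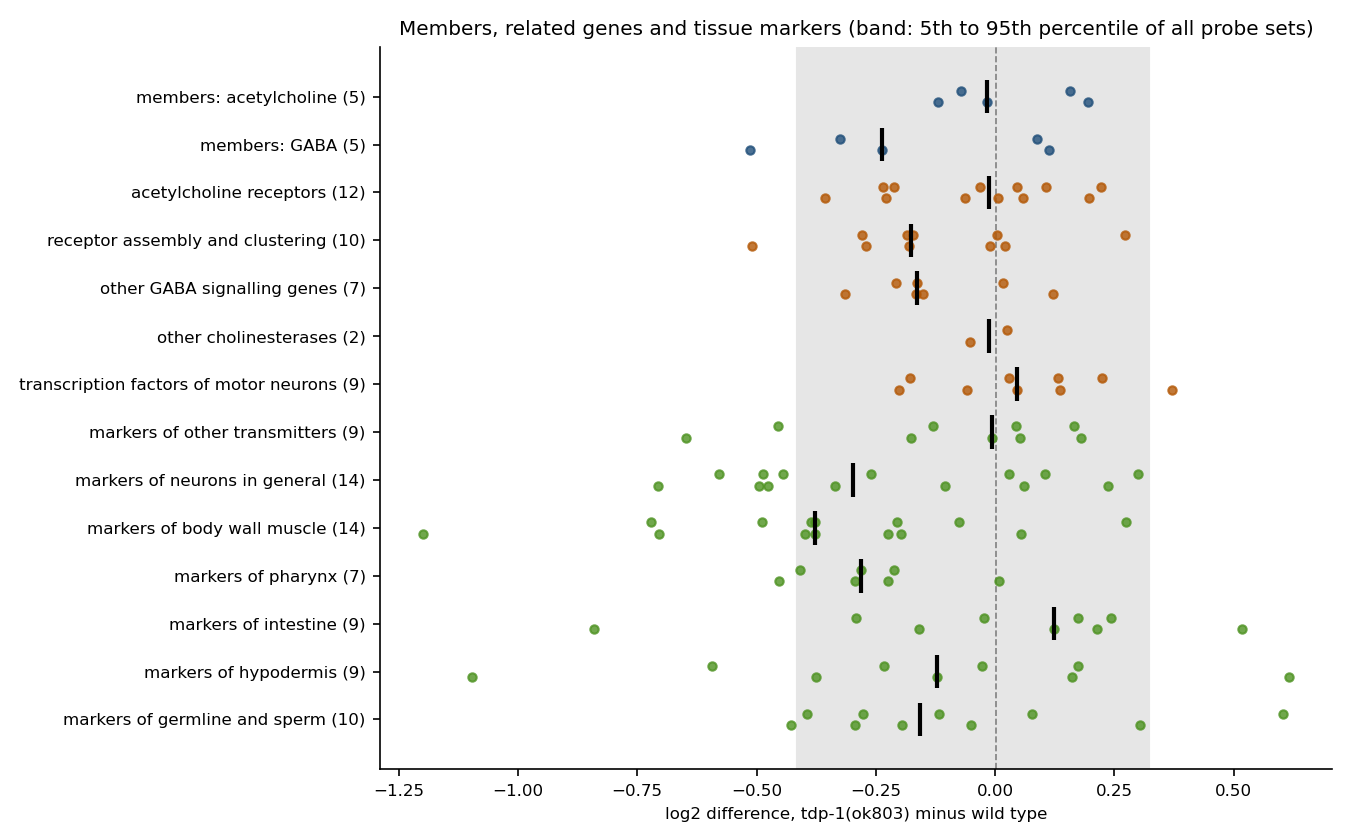
Log2 difference, tdp-1(ok803) minus wild type (horizontal axis), of each measured gene by its brightest probe set, in rows for the members (blue), related genes of motor transmission (orange) and markers of other transmitters, cell types and tissues (green), with the number of genes in brackets and the black bar at the row's median. The grey band runs from the 5th to the 95th percentile of all probe sets, -0.42 to 0.32, and of the 10 members only unc-25 lies outside it.

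Markers of the tissues that hold these genes were read on the same arrays, and none passed in limma. Of 14 general neuron markers, 9 were lower in the mutant with a median of -0.30 (-0.14 with the 3' minus 5' covariate), and the mean log2 level of the list was 6.83 to 7.17 in wild type and 6.71 to 6.89 in tdp-1(ok803). The vesicle GTPase gene rab-3 had the lowest difference of these 14, -0.71 (limma adjusted p = 0.218). The 5 higher ones were the vesicle protein gene snb-1 at 0.30, unc-64 at 0.24, rgef-1 at 0.10, unc-31 at 0.06 and unc-18 at 0.03. Of 14 body wall muscle markers, 12 were lower with a median of -0.38 (-0.18 with the covariate), and the list's mean level was 9.10 to 9.60 in wild type and 9.05 to 9.06 in the mutant. The body wall myosin genes unc-54 and myo-3, which define that muscle, differed by -0.70 and -0.49 (limma adjusted p = 0.778 and 0.849). With the covariate unc-54 and myo-3 differed by -0.22 and -0.11, and on the large-difference arrays by -0.0042 and 0.22. The slope of unc-54 on the control difference passed over all probe sets (limma adjusted p = 0.018). The 4 muscle markers of smallest limma p, unc-22, tni-1, mup-2 and unc-45, were picked by these same values, so nothing is read from their kept direction. They differed by -1.20, -0.72, -0.38 and -0.40, and with the covariate by -1.25, -0.43, -0.30 and -0.53. On the large-difference arrays their differences were -0.94, -0.28, -0.21 and -0.43. Of the 14 muscle markers, 2 were higher without the covariate, unc-15 at 0.27 and unc-60 at 0.05. With it, the higher ones were unc-15 and unc-27 at 0.25, tnt-2 and unc-60 at 0.07 and unc-87 at 0.01. On the large-difference arrays, besides myo-3, they were unc-15 at 0.55, unc-27 at 0.28, tnt-2 at 0.19, unc-87 at 0.10, unc-60 at 0.08 and lev-11 at 0.07. Markers of neurons using other transmitters had a median of -0.01 over 9 genes, with mean levels of 5.93 to 6.01 and 5.80 to 5.90. Of these, 5 were lower and 4 higher, from -0.65 for tbh-1 to 0.18 for mod-5. The groups of tbh-1 did not overlap (limma unadjusted p = 0.00461, adjusted p = 0.4), and with the covariate it differed by -0.53. The next lowest, tdc-1, differed by -0.46, and by -0.07 with the covariate. At an unadjusted p under 0.05 stood 4 of 14 neuron, 4 of 14 muscle and 1 of 9 other-transmitter markers, beside 6.97% of all probe sets. The lists were chosen with earlier results of these arrays known, so nothing is read from these counts. The part of these markers in the values of unc-25, unc-47 and unc-49 was not tested. Medians were -0.28 for 7 pharynx, 0.12 for 9 intestine, -0.12 for 9 hypodermis and -0.16 for 10 germline and sperm markers. With the covariate these medians were -0.04, 0.15, 0.02 and -0.06.

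The profile of unc-25, the member with the largest moderated t, was set against those of 17117 other genes, each centred on its own mean over the 6 arrays. The closest, by root mean square distance in log2 units, were atf-8, a bZIP transcription factor gene, at 0.034, unc-9, a gap junction innexin gene, at 0.047, and nhr-43, a nuclear hormone receptor gene, at 0.069. A flat profile lay at 0.29. The differences of atf-8, unc-9 and nhr-43 were -0.51, -0.47 and -0.45, none of which passed (limma adjusted p = 0.421, 0.441 and 0.539). With 6 arrays and so many genes, some profiles lie close to any given one.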

How the data were processed

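TRIzol and the RNeasy kit gave total RNA, and biotin was added with Affymetrix's 3' IVT Express chemistry, per the labels' protocols. The authors deposited log2 values for each array and probe set, made with RMA and Partek, per the submitters' processing notes. Of versions and settings nothing is given in the sources used here. The log2 scale follows from the range of values. Medians of the arrays lay between 5.41 and 5.52. Without scanner files no probe set could be set against background.

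Arrays were grouped by labelled genotype. Control probe sets (77) were set aside, leaving 22548. Of these, 20766 carried 1 symbol, 887 several and 895 none here. Gene IDs were looked up in the WBcel235 table for current symbols; 65 probe sets, those of unc-17 and cha-1 among them, found no match there and kept their own. The brightest probe set stood for a gene.

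Differences were fitted in R 4.3.3 with limma 3.58.1 (lmFit, eBayes, on genotype alone). The two-sided p-values were adjusted by Benjamini-Hochberg over all probe sets, with a threshold of 0.05. Exact permutation tests used scipy 1.17.1, and the fit was tested on simulated data. The members and gene lists were chosen with earlier results of these data known, and so were the alternatives. All members are named, and of each related list the 3 genes of smallest p, each by its probe set of smallest p. Named too are single markers where they define a tissue, and the 3 profiles closest to the member of largest moderated t. The unc-3 and unc-30 genes and the unc-49 comparison fall outside that rule and were chosen after their values were seen. So do the named neuron markers other than rab-3 and the named muscle markers other than unc-54 and myo-3. The same holds for the named markers of other transmitters, tbh-1, tdc-1 and mod-5. The planned search of promoters for motifs, and protein sequences, were not analysed here.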

Additional observations from a re-analysis of the deposited data

How the results depend on the processing

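Signal over background was not assessed, so what it limits is not known here. Over 157 values of the 10 genes under the alternatives, 2 passed the threshold, both with array weights, where unc-25 was -0.62 and unc-49 -0.88 (limma adjusted p = 0.00194 and 0.00457) and the count of members changed was 2. Those weights, 7.91 for wild-type replicate 1 and 4.16 for mutant replicate 1 against 0.27 to 0.54 for the rest, leave nearly a comparison of 2 arrays, and the count over all probe sets was then 6291. That count was 13 as reported, 0 with the unmoderated model, 7 with equal array medians, 5 with the replicate block, 25 with the 3' minus 5' covariate, 21 with the class of that difference as a term (chosen after seeing the data), 6 at an adjusted p under 0.01, and 4 to 97 with 1 array left out, the 97 being for wild-type replicate 2 left out. The sign turned in 13 of the 157 values, all uncalled, in 5 genes (unc-17, cha-1, ace-1, unc-46 and exp-1), and in none of those run for cho-1, ace-2, unc-25, unc-47 and unc-49. With single arrays left out, unc-25 ran from -0.61 to -0.44, unc-47 from -0.28 to -0.15, unc-49 from -0.50 to -0.08 and cho-1 from 0.12 to 0.18; these fits share most arrays with the full one. The members' median, -0.04 as reported, ran from -0.07 to 0.02 with single arrays left out and was -0.12 with the filter on low signal. Neither its size nor its sign held. The pooled SD between replicates of the members' mean log2 level was 0.09, which is not an error of that median. The related lists had a count of 0 wherever they were refitted, while their medians moved as given with them. Same-numbered replicates did not deviate together (correlations of 0.05, -0.61 and -0.46). The largest correlations were 0.60, for wild-type replicate 2 with mutant replicate 3, and 0.49, for wild-type replicate 3 with mutant replicate 2. Both join arrays of the same class of control difference, so the check cannot tell whether the numbers mark pairs. The replicate block called 0 members, with unc-25 at a limma adjusted p of 0.954. A filter at the 30th percentile of mean signal kept 7 of the 10 genes, without ace-1, ace-2 and exp-1.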
